A study of Mus musculus with 12 samples.

Results

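The 7 genes described here encode the cytosolic translation elongation factors of the mouse and the kinase of one of them: Eef1a1, Eef1a2, Eef1b2, Eef1d, Eef1g, Eef2 and Eef2k. They were taken by gene symbol from a table of 55385 genes, in which each symbol had 1 row. The table covers C2C12, a mouse myoblast line, as 3 libraries of undifferentiated myoblasts and 3 libraries of cells differentiated into myotubes for 7 days. Ribosome-depleted total RNA was sequenced, and all 6 libraries come from the same line with no other treatment named. C2C12 is an immortal line rather than muscle tissue, and the labels do not state whether replicates are separate cultures. All p-values therefore rest on the spread between these libraries, and that spread may be technical. The series also holds small RNA data from stem cells, which carry no value for these genes.

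In each round of elongation, eEF1A bound to GTP brings an aminoacyl-tRNA to the ribosome, and eEF2 then moves the ribosome forward by 1 codon. The eEF1B complex recharges eEF1A with GTP: Eef1b2 and Eef1d encode its exchange factors and Eef1g its structural subunit. The kinase eEF2K, which is activated by calcium and calmodulin, phosphorylates eEF2 and so slows elongation. Mammals have a pair of near-identical eEF1A proteins. Eef1a1 is expressed in nearly all cells, and Eef1a2 is known as the form that replaces it in mature skeletal muscle, heart and neurons after birth.

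The group was proposed as a switch from Eef1a1 to Eef1a2, and the counts did not show one. Eef1a2 had 0 counts in each of the 3 myoblast libraries and 0, 19 and 15 counts in the 3 myotube libraries, while Eef1a1 had 96874 or more in every library. The group is therefore called the elongation factor genes below. Of the 6 genes with enough counts to be tested, 4 fell and 0 rose in myotubes, and the 3 genes of eEF1B were among those that fell. Over all 15932 tested genes, 19.6% fell and 20.5% rose, 40.1% in all (edgeR quasi-likelihood test, adjusted p under 0.05).

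The start regions of the 2 eEF1A genes are shown because their transcripts differed so widely in level, and that of Eef2 because it is the other abundant factor. The windows run from 250 bases before to 50 bases after the annotated start and were taken from RefSeq on GRCm38.p6, the build of mm10, in the direction of transcription. Capitals mark every match, on either strand, to the TATA-like words TATATAA and then TATAAAA, the E-box forms CAGCTG and also CACGTG, which basic helix-loop-helix factors can bind, and the GC box GGGCGG. Matches do not overlap in these windows. Positions give the first base of a match, counting the annotated start as 1. The Eef1a1 window is chr9:78481675-78481974 on the minus strand, the Eef1a2 window chr2:181156966-181157265 on the minus strand, and the Eef2 window chr10:81176381-81176680 on the plus strand.
Eef1a1: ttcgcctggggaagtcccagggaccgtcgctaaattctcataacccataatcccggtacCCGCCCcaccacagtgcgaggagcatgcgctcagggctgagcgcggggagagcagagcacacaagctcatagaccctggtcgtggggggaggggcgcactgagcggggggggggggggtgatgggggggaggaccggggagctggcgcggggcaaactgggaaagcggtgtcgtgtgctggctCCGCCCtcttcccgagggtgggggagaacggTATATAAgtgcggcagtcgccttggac
Eef1a2: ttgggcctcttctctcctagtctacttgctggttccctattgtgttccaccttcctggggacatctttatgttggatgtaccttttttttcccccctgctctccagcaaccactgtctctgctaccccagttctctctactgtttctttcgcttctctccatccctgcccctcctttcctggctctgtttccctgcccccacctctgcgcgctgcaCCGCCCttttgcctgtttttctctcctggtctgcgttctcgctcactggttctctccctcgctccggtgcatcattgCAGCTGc
Eef2: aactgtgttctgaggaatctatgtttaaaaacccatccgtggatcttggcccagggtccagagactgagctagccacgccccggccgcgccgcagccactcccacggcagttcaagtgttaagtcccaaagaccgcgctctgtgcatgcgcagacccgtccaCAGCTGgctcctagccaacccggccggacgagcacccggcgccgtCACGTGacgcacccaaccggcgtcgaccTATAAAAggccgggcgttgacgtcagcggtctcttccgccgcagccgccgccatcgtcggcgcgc

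Of the 7 genes, 5 had such a window in the table, with 3 alternative starts for Eef2k. The Eef1a1 window holds TATATAA at position 24, downstream of its annotated start, and GGGCGG on the opposite strand at -191 and -8. The Eef2 window holds TATAAAA at -15, CAGCTG at -88 and CACGTG at -43. In the Eef1a2 window there is 1 CAGCTG at position 44 and 1 GGGCGG on the opposite strand at -34, and neither TATATAA nor TATAAAA. Over all 32851 windows of the same length, TATATAA was found in 3.24%, TATAAAA in 5.48%, CAGCTG in 16.3%, CACGTG in 7.15% and GGGCGG in 35.7%. These matches describe the sequence only.

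Eef1a1 (ENSMUSG00000037742.14, chr9:78478453-78481724, minus strand) was the highest of the 7 genes in every library. Its level in CPM, the count relative to a library size scaled by the TMM method, was 8066, 8691 and 7736 in myoblasts and 6857, 5496 and 5615 in myotubes. Each myotube library lay below each myoblast library, with myotube replicate 1 the closest to the myoblasts. The edgeR quasi-likelihood test, fitted over 15932 genes, gave a log2 fold change of -0.45 with a 95% interval of -1.06 to 0.17, and the gene was not called (adjusted p = 0.21). DESeq2 called Eef1a1 lower (adjusted p = 0.0334, log2 fold change -0.46). These are bulk libraries, in which fewer cells of a type and less RNA per cell cannot be told apart.

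Divided by the deposited gene length, Eef1a1 stood at 3270 ± 195 CPM per kilobase in myoblasts and 2400 ± 302 in myotubes (SD, n = 3). It had rank 10 of all 55385 genes in both groups. Its reads made up 0.892%, 0.924% and 0.743% of all gene counts in myoblasts and 0.65%, 0.542% and 0.528% in myotubes. Processed copies of this gene are numerous in the mouse genome, and how reads that fit several copies were counted is not given in the sources used here. Its level is uncertain for that reason. The annotated copy Eef1a1-ps1 was counted 651, 923 and 224 times in the myoblast libraries and 286, 216 and 157 times in the myotube libraries, far below its parent, and Eef1a1-ps2 had 0 in all 6 libraries.

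Eef1a2 (ENSMUSG00000016349.10, chr2:181141758-181157015, minus strand) was at or near 0 in every library. With 0 counts, its level could have reached 0.0501, 0.0731 and 0.141 CPM in the 3 myoblast libraries and 0.116 CPM in myotube replicate 1, taking 3 counts as the limit. Myotube replicates 2 and 3 were at 0.619 and 0.87 CPM, above these limits. Summed over the groups, Eef1a2 had 0 counts in myoblasts and 34 in myotubes. Relative to library size it was 18.8-fold higher in myotubes, with the myoblast group as a whole set to a floor of 3 counts. This value takes the 34 counts as exact and leaves out the spread between libraries, so it is not a lower bound. The groups overlapped, since myotube replicate 1 also had 0.

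As a share of eEF1A transcripts per gene length, Eef1a2 made up 0.0135% in myotube replicate 2 and 0.0185% in myotube replicate 3. The share of raw counts was 0.0113% (95% exact binomial interval 0.00678% to 0.0176%) and 0.0155% (0.00867% to 0.0255%). In myotube replicate 1 the 0 counts allow a share of counts of up to 0.00169% by the limit of 3 counts, and the exact interval reaches 0.00208%. Intervals and limits cover counting error only. The mean share per length in myotubes was 0.0107% ± 0.00957 (SD, n = 3) against 0 in myoblasts. The difference exceeded the SD only slightly and did not pass the exact permutation test (two-sided, p = 0.4, where 0.1 is the smallest p that 3 against 3 allows). It was 0.016% without myotube replicate 1 and 0.00675% without myotube replicate 3.

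Eef1a2 did not pass the filter on low counts and was not tested in the edgeR fit. Without that filter the test called it higher (adjusted p = 0.0266). It was also called without myotube replicate 1 (adjusted p = 0.00173), where the smaller group let it pass. That setting leaves out the only myotube library with 0 counts, which favours a call in advance. Both calls rest on myotube replicates 2 and 3 alone and are no separate support for a rise. Without myoblast replicate 1, 2 or 3 it also passed and was not called (adjusted p = 0.0767, 0.0785 and 0.0655). The fitted fold change of a gene at 0 depends on the prior count and gives no size.

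The 2 libraries with Eef1a2 counts were also those with the highest levels of muscle genes. The 12 marker genes of differentiated muscle, among them Myog, Ckm and Myh4, all rose, against 20.5% of all tested genes. Their summed level was 4778, 11204 and 10339 CPM in myotube replicates 1, 2 and 3, against 16.5 to 75.7 in myoblasts. The 8 proliferation genes all fell, against 19.6% of all tested genes. They fell to a summed 996, 269 and 220 CPM from 2732 to 2819. Without the filter on low counts Mki67, Top2a, Bub1 and Aurkb were no longer called (adjusted p = 0.0801, 0.147, 0.0988 and 0.0955). Top2a was also not called without myoblast replicate 2 (0.0605) or 3 (0.0586) or myotube replicate 2 (0.0636).

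Markers of neurons, heart muscle, satellite or reserve cells and fat cells were also examined. Of 8 neuron markers, Rbfox3 and Snap25 were at 0 in all libraries. The summed level of the list, 50.9 to 80.3 CPM in myoblasts and 30.3 to 38.0 in myotubes, was mostly Stmn2, which fell. Slc17a7, too low to be tested, was counted 12, 9 and 2 times in the myoblast libraries. Its counts in the myotube libraries were 2, 33 and 18, highest in the 2 libraries that had Eef1a2 counts. It was named after its values were seen, and the list did not share this pattern. Among the myotube libraries, Stmn2 (36.2, 26.9 and 26.8 CPM) and Syt1 (3, 0 and 0 counts) were highest in replicate 1. Of 6 heart markers, Myl7 was at 0 throughout, Myh6 was called higher (edgeR adjusted p = 0.000539) and Nppb changed by -2.74 on the log2 scale (adjusted p = 0.0125). Myh6 was counted 0, 6 and 1 times in the myoblast libraries, against 184, 251 and 170 times after differentiation. Its fitted log2 fold change of 7.03 rests on these few myoblast counts and on the prior count, so its size is uncertain. The sum of the 6 heart markers was 7.65 to 11.6 CPM in myotubes, mostly Myh6, against 1.54 to 4.22 in myoblasts. Of 6 satellite or reserve cell markers, Spry1 rose and Myf5 fell, with sums of 729 to 888 CPM in myoblasts and 811 to 1091 in myotubes. These sums hide differences between libraries. Cd34 was at 429, 96.8 and 74.7 CPM in myoblasts and 618, 88.6 and 106 CPM in myotubes. Pax7 was at 5.16, 24.9 and 22.4 CPM in myoblasts and 1.74, 15.6 and 16.4 CPM in myotubes. Replicate 1 thus had the most Cd34 and the least Pax7 in both groups. Of 6 fat cell markers, Adipoq and Cidec were at 0 and the sum was 20.3 to 23.6 CPM in myoblasts and 6.23 to 10.6 in myotubes. The part of these cell states in the level of Eef1a2 was not tested.

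**Figure D1:**
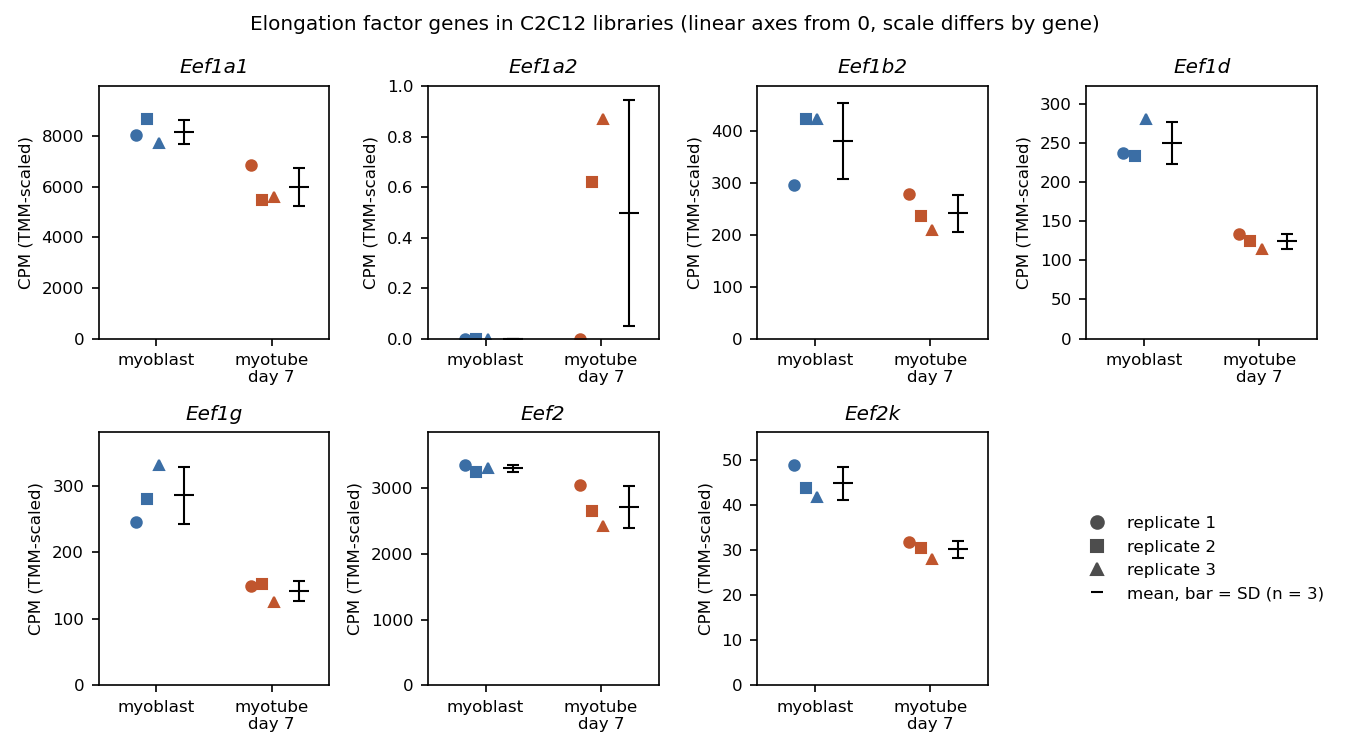
Level of each elongation factor gene in CPM (linear vertical axes from 0, scale differs by gene) in 3 myoblast and 3 day 7 myotube libraries, with the mean and SD beside the points. Eef1a1 lies between 5496 and 8691 CPM in all libraries, whereas Eef1a2 is at 0 in 4 libraries and reaches 0.87 CPM at most.

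The 3 subunit genes of the eEF1B exchange complex fell. Eef1d (ENSMUSG00000055762.16, chr15:75894796-75909784), which encodes the delta exchange subunit, was at 237, 233 and 281 CPM in myoblasts and at 134, 125 and 115 CPM in myotubes. The groups were well apart, and the log2 fold change was -1.0 ± 0.17 (SE, edgeR adjusted p = 0.00272). Counts of this gene pool its isoforms, some of which encode a longer protein, and one end of it overlaps the gene Tigd5, which was not called. Eef1g (ENSMUSG00000071644.10, chr19:8967041-8978180), the structural gamma subunit, was at 246, 281 and 331 CPM in myoblasts and 149, 153 and 125 CPM in myotubes. Its log2 fold change was -1.01 ± 0.19 (SE, adjusted p = 0.00433). Both genes thus stood at close to the same fraction of their myoblast level, 0.498 for Eef1d and 0.497 for Eef1g, as ratios of mean CPM. Both calls held under all 12 other settings tried.

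Eef1b2 (ENSMUSG00000025967.16, chr1:63176831-63180486, plus strand), the alpha exchange subunit, was at 296, 424 and 424 CPM in myoblasts and 280, 237 and 209 CPM in myotubes. Myoblast replicate 1 was much lower than the other 2 and only just above myotube replicate 1. The log2 fold change was -0.66 ± 0.22 (SE, edgeR adjusted p = 0.0419). This call was lost with the replicate number as a block (adjusted p = 0.0597). It was also lost without myoblast replicate 2 (adjusted p = 0.135) or 3 (0.12) and without myotube replicate 2 (0.0927) or 3 (0.138), with log2 fold changes of -0.57 to -0.68.

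Eef2 (ENSMUSG00000034994.10, chr10:81176631-81182509, plus strand), the translocation factor, was at 3352, 3251 and 3320 CPM in myoblasts and 3058, 2650 and 2427 CPM in myotubes. The myoblast libraries lay within a narrow band, and all 3 myotube libraries lay below it. The gene was not called, with a log2 fold change of -0.29 and a 95% interval of -0.82 to 0.25 (edgeR adjusted p = 0.35). Per kilobase its mean CPM was 995 ± 15.5 for the myoblasts and 816 ± 96.2 for the myotubes (SD, n = 3), rank 20 and rank 30 of all genes. Its annotated copy Eef2-ps2 had 42 to 253 counts and was not called.

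Eef2k (ENSMUSG00000035064.17, chr7:120842642-120907219, plus strand), the kinase that inhibits eEF2, was at 48.8, 43.8 and 41.8 CPM in myoblasts and 31.8, 30.5 and 28.1 CPM in myotubes. The groups did not overlap, and the log2 fold change was -0.57 ± 0.16 (SE, edgeR adjusted p = 0.0215). The call was lost without myoblast replicate 2 (adjusted p = 0.0621) and without myotube replicate 2 (0.0544) or 3 (0.0933). Per kilobase it was the lowest of the 6 tested genes, with a mean CPM of 6.05 ± 0.486 for the myoblasts and 4.07 ± 0.251 for the myotubes (SD, n = 3).

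All 6 tested elongation factor genes were lower in every myotube library than in every myoblast library. Among all tested genes, 27.2% had groups that did not overlap in this direction, and 28.7% in the other. The median log2 fold change of the 6 was -0.61, against 0.06 over all 15932 genes. Together the 7 genes held 1.17% to 1.37% of all counts in myoblasts and 0.802% to 0.997% in myotubes. Myotube replicate 1, which had less of the muscle markers and more of the proliferation markers than the other 2, also had the highest Eef1a1, Eef2, Eef1b2, Eef1d and Eef2k of the 3. The part of this in the results was not tested. Without it, the log2 fold change was -0.58 for Eef1a1 (adjusted p = 0.084) and -0.40 for Eef2 (adjusted p = 0.168).

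**Figure D2:**
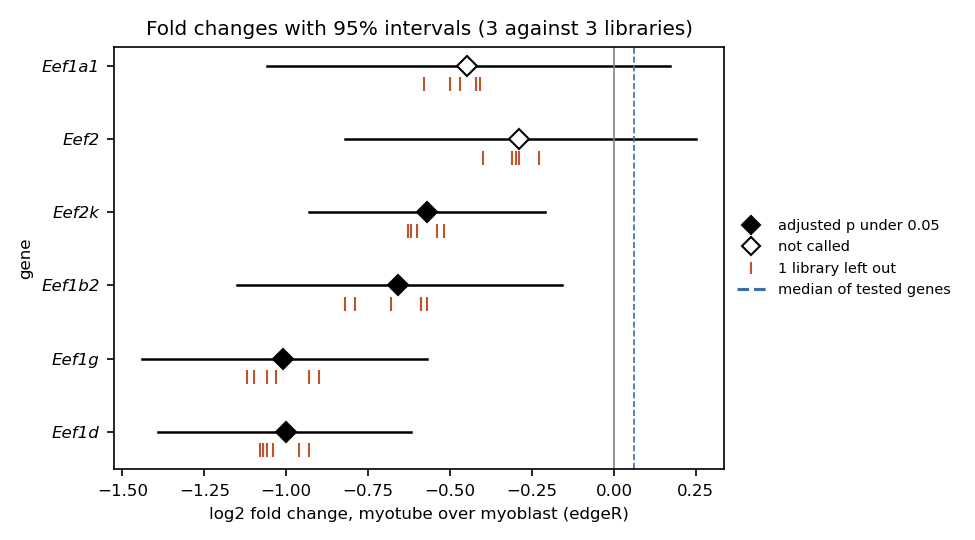
Log2 fold change of myotubes over myoblasts for the 6 tested genes (horizontal axis, edgeR) with 95% intervals, and ticks for the values with 1 library left out. The intervals of Eef1d, Eef1g, Eef1b2 and Eef2k lie below 0, those of Eef1a1 and Eef2 reach above it, and no tick lies above 0.

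Ratios within a library do not depend on scaling between libraries, and 7 were computed per gene length. They were chosen after the levels had been seen and are given as a description, with no test. Eef1d stood to Eef1g as 0.353 ± 0.0287 in the myoblast libraries and 0.352 ± 0.0228 in the myotube libraries (SD, n = 3), a difference smaller than the spread between libraries. Eef1a1 was higher in myotubes relative to both of these subunits. For each Eef1d transcript there were 88.5, 96.9 and 71.6 of Eef1a1 in myoblasts and 133, 114 and 127 in myotubes, with no overlap. For each Eef1g transcript there were 34.2, 32.3 and 24.3 of Eef1a1 in myoblasts and 47.9, 37.4 and 46.9 in myotubes, again with no overlap. Both ratios were higher by 0.55 on the log2 scale.

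The ratio of Eef1b2 to Eef1g was 1.24, 1.55 and 1.31 in myoblasts and 1.93, 1.59 and 1.72 in myotubes, a log2 difference of 0.35 with groups that only just separated. Between Eef1a1 and Eef1b2 the ratio overlapped between groups: there were 22.3 ± 4.73 Eef1a1 transcripts for each Eef1b2 transcript in myoblasts and 25.2 ± 1.93 in myotubes (SD, n = 3). The ratio of Eef1a1 to Eef2 was 3.29 ± 0.24 in myoblasts and 2.95 ± 0.164 in myotubes, without overlap and with a small log2 difference of -0.16. For each Eef2k transcript there were 165 ± 12 of Eef2 in myoblasts and 200 ± 12.4 in myotubes (SD, n = 3), also without overlap. These ratios use gene lengths that join all exons, so their absolute size is less certain than their difference between groups.

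**Figure D3:**
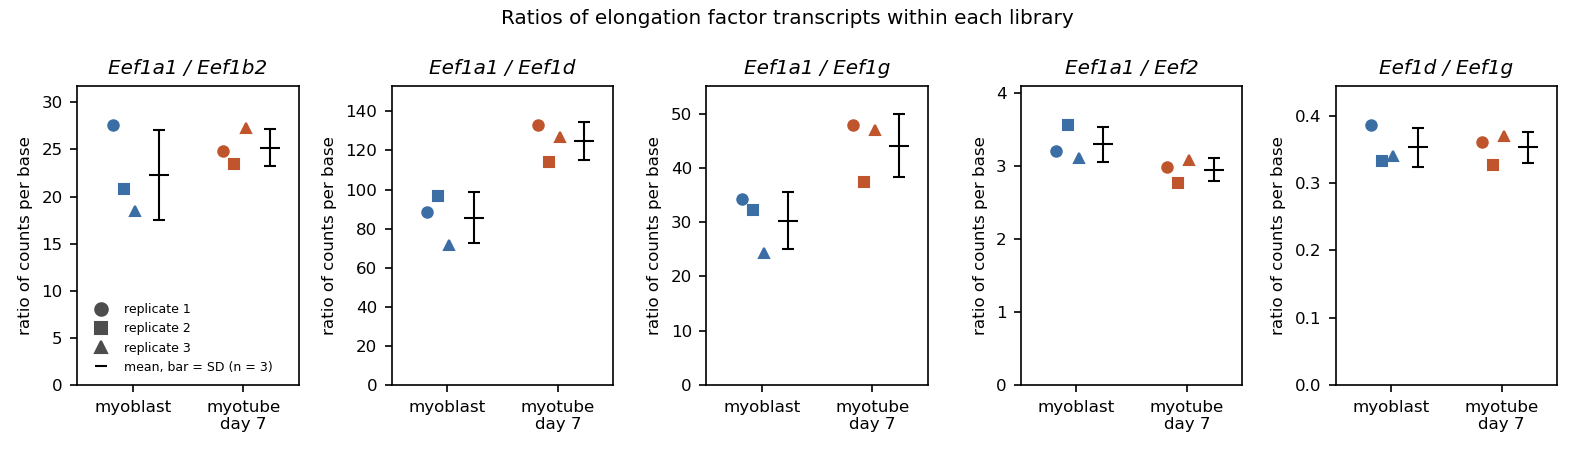
Ratios of counts per base between pairs of elongation factor genes within each library (linear vertical axes from 0), for 3 myoblast and 3 myotube libraries with mean and SD. Eef1a1 over Eef1d and over Eef1g is higher in all myotube libraries, while Eef1d over Eef1g is 0.353 and 0.352 on average.

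Of 15 tested genes whose products modify or bind eEF1A and eEF2, 7 fell (46.7%, against 19.6% of all tested genes) and 0 rose (20.5% of all), with a median log2 fold change of -0.77 against 0.06 over all tested genes. Vars, the valyl-tRNA synthetase that binds the eEF1 complex, went from 216 ± 60.1 CPM to 49.7 ± 16.2 CPM (SD, n = 3), which is -2.11 ± 0.32 on the log2 scale (SE, edgeR adjusted p = 0.00163). Dph2, which acts in making the diphthamide residue of eEF2, changed by -1.54 ± 0.33 (adjusted p = 0.00814). Eef1e1, a scaffold protein of the tRNA synthetase complex, changed by -1.33 ± 0.40 (adjusted p = 0.0292), a call lost without myoblast replicate 2 (0.0616) or 3 (0.0941) and without the filter on low counts (0.0546). Without myoblast replicate 2 or 3 the list had 4 genes lower in place of 7, while 12.9% and 13.1% of all tested genes were lower.

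Of 14 other cytosolic factors of elongation, termination and ribosome rescue, 7 fell (50.0%, against 19.6% of all tested genes) and 1 rose (7.14%, against 20.5%), with a median of -0.63. Eif5a, the hypusine-bearing factor that helps form difficult peptide bonds, went from 806 ± 19.6 CPM to 239 ± 60.3 CPM (SD, n = 3), which is -1.76 ± 0.24 on the log2 scale (edgeR adjusted p = 0.00109). Its paralog Eif5a2 changed by -1.27 ± 0.21 (adjusted p = 0.00245), and Eefsec, which delivers selenocysteine, by -1.17 ± 0.19 (adjusted p = 0.00215). The rescue GTPase gene Gtpbp2 was called higher (0.70 ± 0.23, adjusted p = 0.039). This call was lost without myoblast replicate 2 (0.094) or 3 (0.135), without myotube replicate 1 (0.0811) or 3 (0.0825), and with scaling by library size alone (0.0984). Of 5 mitochondrial elongation factors 3 fell and 0 rose, against 19.6% and 20.5% of all tested genes, with a median of -0.67: Tsfm (log2 fold change -1.26 ± 0.23), Tufm (-0.88 ± 0.18) and Gfm1 (-0.67 ± 0.18, SE). Gfm1 was no longer called without myotube replicate 3 (adjusted p = 0.0516) or without myoblast replicate 2 (0.0547) or 3 (0.0546). Without myotube replicate 1, 1 gene of this list was called higher, where 20.5% of all tested genes were higher.

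The factors of translation initiation gave a comparison with the step before elongation. Of 43 tested initiation factor genes, 18 fell (41.9%, against 19.6% of all tested genes) and 1 rose (2.33%, against 20.5%), with a median of -0.57. Pabpc1, the poly(A)-binding protein, changed by -1.49 ± 0.25 (edgeR adjusted p = 0.00244), and Eif6, which acts on the large ribosomal subunit, by -1.23 ± 0.17 (adjusted p = 0.00122). The RNA helicase gene Eif4a1 fell from 1070 ± 188 to 430 ± 87.5 CPM (SD, n = 3). The gene that rose was its paralog Eif4a2, from 257 ± 31.9 to 493 ± 54.6 CPM (SD, n = 3; log2 fold change 0.94 ± 0.19, adjusted p = 0.00599). The count of genes lower was 11 and 9 without myoblast replicate 2 and 3, and 11 without myotube replicate 3, where 12.9%, 13.1% and 13.1% of all tested genes were lower.

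Ribosomal protein mRNAs share with those of eEF1A, eEF1B and eEF2 a terminal oligopyrimidine tract that couples their translation to mTOR. Of 79 tested cytosolic ribosomal protein genes, 24 fell (30.4%, against 19.6% of all tested genes) and 0 rose (20.5% of all), with a median of -0.63, near that of the elongation factor genes. Rpl13a changed by -1.20 ± 0.21 (edgeR adjusted p = 0.00313) and Rps10 by -1.19 ± 0.29 (adjusted p = 0.0126). Most ribosomal protein genes have processed copies elsewhere in the genome, which makes their counts uncertain. The summed level of the list was 37098, 38423 and 35690 CPM in myoblasts and 31490, 20823 and 19075 CPM in myotubes, with myotube replicate 1 nearest to the myoblasts. The number called lower was 70 without that library, where 21.0% of all tested genes were lower. It was 9 and 8 without myotube replicate 2 and 3 (15.7% and 13.1% of all tested genes) and 11 and 12 without myoblast replicate 2 and 3 (12.9% and 13.1%). In these 4 settings the share of ribosomal protein genes called lower was near or below that of all genes. DESeq2 called 39 lower, edgeR without the filter 40 and edgeR with scaling by library size alone 45. Under them, 21.6%, 10.4% and 23.1% of all tested genes were lower.

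Of 20 tested kinases and regulators upstream of eEF2 kinase, 5 rose and 5 fell, 25.0% each way, which is near the 20.5% and 19.6% of all tested genes. The median was -0.19. The AMP-activated protein kinase, which can activate eEF2K, is made of alpha, beta and gamma subunits, each with alternative genes. Among these Prkag3 rose from 1.0 ± 0.09 CPM to 66.5 ± 37 CPM (SD, n = 3), which is 6.06 ± 0.54 on the log2 scale (edgeR adjusted p = 0.000231). Prkaa2 rose by 2.01 ± 0.26 and Prkab2 by 1.14 ± 0.18, whereas Prkag2 changed by -2.36 ± 0.26 and Prkab1 by -0.79 ± 0.20 (SE). The call of Prkab1 was lost without myoblast replicate 3 (adjusted p = 0.0505). Ppp2cb, a catalytic subunit of the phosphatase that removes phosphate from eEF2, changed by -0.91 ± 0.20 (adjusted p = 0.00769). The number of genes lower was 3 without myoblast replicate 2 or 3 or myotube replicate 3, where 12.9%, 13.1% and 13.1% of all tested genes were lower.

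**Figure D4:**
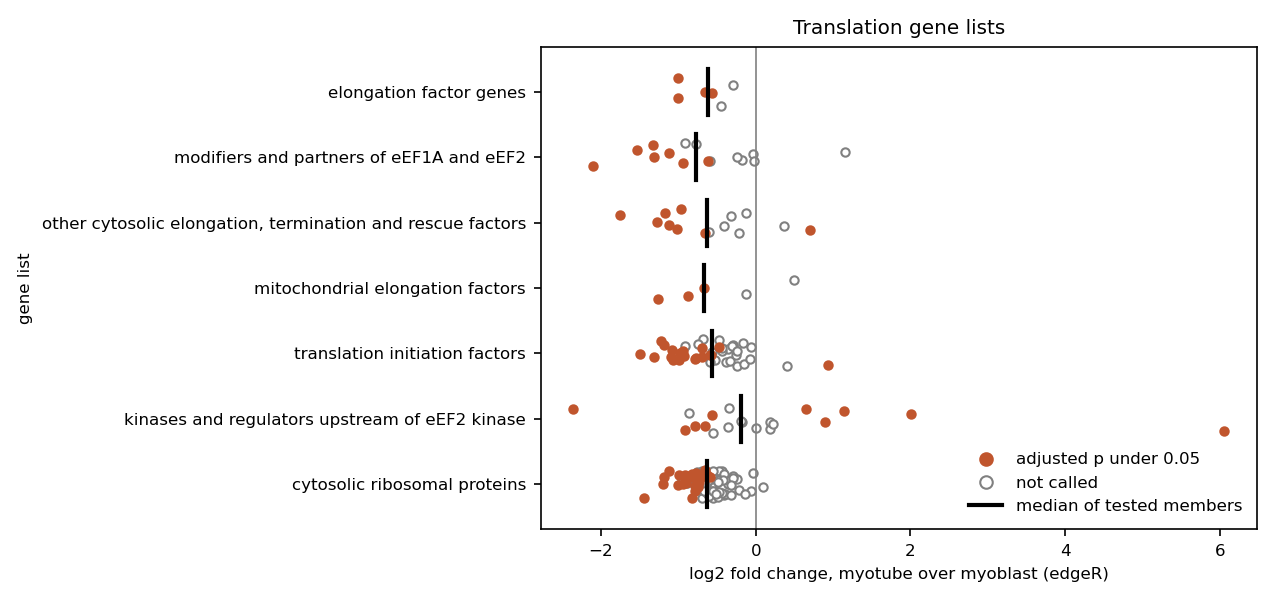
Log2 fold change of myotubes over myoblasts (horizontal axis, edgeR) for each tested gene of the elongation factor group and of 6 lists of related genes, with the list median as a bar. The medians lie between -0.77 and -0.19, and the gene far to the right is Prkag3 at 6.06.

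The genes whose profile over the 6 libraries was closest to that of Eef1a1 were Scarf2, Aplf, Adgra3, Lonp1 and Psme1. Likeness was the root mean square difference of log2 CPM after centring each gene on its mean, over 9414 genes with a mean log2 CPM of 3 or more (predicted Gm and Rik genes and mitochondrial genes left out), and it was 0.0281 for Scarf2 and 0.0605 for Psme1. None of these 5 was called, with log2 fold changes of -0.42 to -0.48. The measure takes in the difference between groups, so these fold changes had to lie near that of Eef1a1. Eef2 ranked 97 by this measure (0.11) and Eef2k 144 (0.122). The eEF1B genes, which fell more, were farther away, with Eef1b2 at rank 951, Eef1d at 2777 and Eef1g at 3217. No such genes were sought for Eef1a2, which was at 0 in 4 of the 6 libraries.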

How the data were processed

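Total RNA libraries of C2C12 cells (TruSeq Stranded Total RNA Gold, per the labels' protocols) were analysed from the deposited raw counts per gene, which sum to 18335785 to 54083215 per library. The gene length in the same table is in bases, per the file headers. The submitters' processing notes name STAR 2.5.1b, featureCounts 1.5.1, DESeq2 1.18.1, Salmon 0.12.0, bcl2fastq and mm10 without roles. Strand settings are not given in the sources used here. The normalised table and the stem cell tables were not used here.

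The whole table was fitted with edgeR 4.0.16 (R 4.3.3): TMM scaling, filterByExpr by group, the quasi-likelihood test (robust, group as the only term) and Benjamini-Hochberg adjustment over 15932 genes at 0.05. SE was derived from the log2 fold change and the F statistic. The script was tested on simulated data. Alternatives were DESeq2 1.42.0, limma 3.58.1 (voom), library size scaling, no filter, a mean count of at least 50, a replicate block, and each library left out. Profiles used a prior count of 2.

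The genes, lists and rules were chosen with earlier results of these data known. Named were all 7 genes, up to 3 called genes per direction and list with the largest change, the 5 genes most like Eef1a1, and annotated pseudogenes of the 7. Some results the rule also names are not reported here. Other genes were named after their values were seen. Of 15 modifiers, Eef1aknmt was listed under its older symbol. Of 55385 identifiers, 55144 matched the reference gene name table.

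No 2 libraries agreed within sampling noise (chi-square per degree of freedom at least 102.8). Same-numbered libraries deviated together (correlations 0.232, 0.189 and 0.17), though myoblast 3 and myotube 2 did so more (0.358). All 3 same-numbered values passed 0.1, so the numbers, which come from the labels, were treated as a possible pairing.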

Additional observations from a re-analysis of the deposited data

How the results depend on the processing

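Of 248 recomputed values for the 6 tested genes, the lists, the Eef1a2 share and the counts over all genes, 218 stayed the same. For log2 fold changes this means the same direction and side of the threshold. For counts it means within 1.5 times, or 0 in both. For the Eef1a2 share it means within the myotube SD of 0.00957, a wide margin around 0.0107%. The share could not change when a myoblast library was left out, since all of these were at 0. Lists with 0 genes higher also counted as the same wherever they stayed at 0. The tally therefore overstates how stable the results are. No log2 fold change reversed, and reversal was not defined for the other values. With DESeq2, Eef1a1 was called lower (-0.46) and 39 ribosomal protein genes were lower, as were 21.6% of all tested genes. Library size scaling shifted log2 fold changes by a median of -0.125 over all genes. With it, 45 ribosomal protein genes were lower (23.1% of all tested genes). In the elongation, termination and rescue list 0 genes were higher (16.8% of all tested genes). Without a filter on low counts 40 ribosomal protein genes were lower (10.4% of all tested genes) and the fitted value of Eef1a2 was 6.98. With the replicate block Eef1b2 changed by -0.65 (adjusted p = 0.0597), and the block changed no other call of the 7 genes. Paired differences of the Eef1a2 share gave the same mean, 0.0107%.

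With 1 library left out at a time, the log2 fold change ranged from -0.82 to -0.57 for Eef1b2 and from -0.63 to -0.52 for Eef2k. The number of genes lower ranged from 8 to 70 for ribosomal proteins, 9 to 20 for initiation factors, 4 to 9 for modifiers and partners, and 3 to 6 upstream of eEF2 kinase. The share of all tested genes called lower moved from 12.9% to 21.0% across the same settings. The number higher ranged from 0 to 1 both for mitochondrial elongation factors and for the elongation, termination and rescue list. The cause of these changes was not tested. The log2 ratio of Eef1a2 to Eef1a1 was not computed, since Eef1a2 was at 0 in 4 libraries. At 18335785 to 54083215 counts per library, Eef1a2 levels under about 0.0501 to 0.174 CPM (3 counts) were not detectable.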

Other observations

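Among the translation genes, the RNA helicase pair Eif4a1 and Eif4a2 moved in opposite directions. This pair and those below were chosen after their values were seen, so their shares are given as a description. Exact permutation tests gave p = 0.1 for each of the 3 pairs, the smallest that 3 against 3 allows. Per gene length, Eif4a2 made up 18.2%, 15.3% and 15.9% of the pair in myoblasts and 56.9%, 41.6% and 46.8% in myotubes, with no overlap. For the alpha subunits of AMP-activated protein kinase, the share of Prkaa2 in the sum with Prkaa1 was 1.81% ± 0.625 in myoblasts and 8.48% ± 0.689 in myotubes (SD, n = 3). For the beta subunits, the share of Prkab2 was 24.8% ± 2.14 in myoblasts and 56.0% ± 7.07 in myotubes (SD, n = 3). Prkab1 and Prkaa1 both remained detected in myotubes, at 26.3 and 122 CPM on average.

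Introns of Eef1b2 and Eef2 hold small nucleolar RNAs. Snora41 lies within Eef1b2 (chr1:63179023-63179135) and was counted 69, 46 and 27 times in the myoblast libraries and 15, 44 and 18 times in the myotube libraries. It was not called (log2 fold change -0.20 ± 0.44, SE, edgeR adjusted p = 0.73). Snord37 lies within Eef2 (chr10:81178961-81179013) and had 5 to 16 counts per library, too few to be tested. These libraries were not made to capture such short RNAs, so the counts say little about their level.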
